A study of Mus musculus with 4 samples.

Results

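The BCL6 peaks nearest to genes of the extracellular matrix and its remodelling are described here in 2 depots of mouse white fat. BCL6 is a zinc finger protein that represses transcription. Members were all peaks whose authors' gene name was a collagen chain, a laminin chain, an ADAMTS or ADAMTS-like protein, a matrix metalloproteinase, a TIMP or a thrombospondin, or was Sparc, Ccdc80, Fn1, Fbn1, Lox, Dcn or Lum, at any distance. The rule took 21 of 1785 peaks of the inguinal list and 50 of 3956 peaks of the perigonadal list, 71 of 5741 in all. They carried 35 gene names. Col4a3bp, with 1 perigonadal peak, was matched by its name alone: it encodes a ceramide transfer protein, and RefSeq calls it Cert1. The gene name is the one the authors' annotation gives for the nearest promoter.

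Chromatin immunoprecipitation with sequencing was done on adipocyte nuclei of C57BL/6 mice carrying Adipoq-Cre and Sun1-sfGFP-myc, a myc-tagged nuclear membrane protein that Cre switches on, by which the nuclei were captured on beads. Adipoq drives the Cre in adipocytes, and every sample carried both alleles. Inguinal fat is subcutaneous and perigonadal fat is visceral. Each depot had 1 library made with a guinea pig antibody against mouse Bcl6 and 1 input library made without antibody, and the inputs were not analysed here. Because a depot had a single BCL6 library, how far animals vary is not known, and depots are not compared by level. All intervals cover counting error only. The age, the sex and the number of animals behind a library are not given in the sources used here.

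The extracellular matrix of fat is a mesh of fibrillar collagens, collagen VI microfibrils and, around each adipocyte, a basement membrane of collagen IV and laminin. Matricellular proteins such as SPARC and the thrombospondins bind this mesh and cell surface receptors without forming fibres. Metalloproteinases of the MMP and ADAMTS families cut matrix proteins, and TIMPs inhibit them. The mesh is rebuilt when fat expands, and fibroblasts and their precursors make much of it alongside the adipocytes themselves. A BCL6 peak marks where the protein was found on DNA and says nothing of the level of the nearby transcript.

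Of the 35 gene names 22 had an entry in the RefSeq promoter table (GRCm38.p6, the assembly behind mm10), and 1 member peak overlapped such a window. It was the inguinal peak of Adamts1, a secreted metalloproteinase that cuts proteoglycans, at chr16:85803290-85803492. The 250 bases before the Adamts1 start, at chr16:85803114-85803363 on the minus strand, are shown because the peak reached the proximal promoter. Capitals mark the 74 bases under the peak, and the start of transcription follows the last base.

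Adamts1 promoter: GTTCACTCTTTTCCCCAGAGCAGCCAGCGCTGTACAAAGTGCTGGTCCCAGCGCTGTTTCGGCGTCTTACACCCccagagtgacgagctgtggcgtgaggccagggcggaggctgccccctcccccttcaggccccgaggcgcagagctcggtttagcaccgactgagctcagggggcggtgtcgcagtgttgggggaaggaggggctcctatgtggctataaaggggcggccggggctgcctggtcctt

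This stretch was 65.6% G and C. It held no match, on either strand, to the paired half-sites TTCNNNGAA or to the tighter form TTCCTNGAA, which is contained in the first. Of all 32851 RefSeq promoter stretches of this length, 7.02% held the first and 1.31% the tighter form. No match says only that these letters are not in this window.

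The matrix gene peaks of the inguinal list were tall and mostly found again in perigonadal fat. Scores lay between 7.52 and 38.4, and their median was 13.5, where that of the whole list was 9.03. The deposited score is a height scaled within each list, with a step of 0.752 for inguinal and 0.882 for perigonadal peaks. A step was read as 1 sequenced tag, so the median matrix peak rested on 18 tags and the median of the list on 12. Of the 21 inguinal members 17 rested on more than 12 tags, 81.0% (Wilson 95% interval 60.0 to 92.3%), beside 41.3% of all inguinal peaks. The tallest 10% of the list held 7 of them, 33.3% (17.2 to 54.6%), beside 10.1% of all peaks.

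The perigonadal members stood less far above the rest of their list. Scores lay between 7.05 and 48.5, and their median was 9.70, beside 8.82 for the whole list. Of the 50 members 18 rested on more than 12 tags, 36.0% (24.1 to 49.9%), beside 24% of all perigonadal peaks. The tallest 10% held 11 of the 50, 22% (12.8 to 35.2%), beside 10.4% of all peaks.

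**Figure D1:**
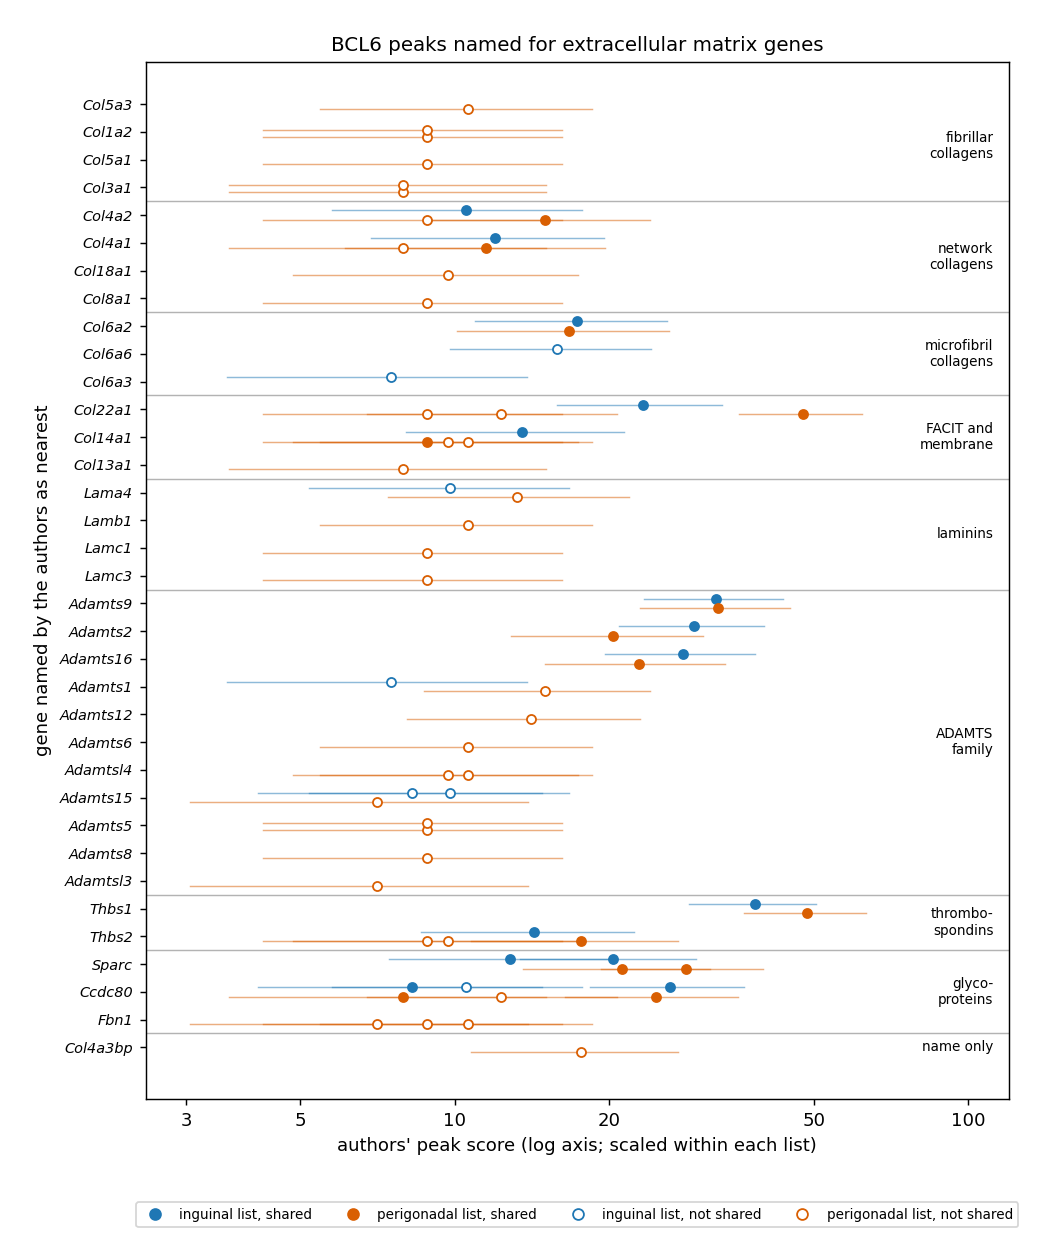
Authors' peak score (log axis) of every member peak, with genes in rows grouped by role. Points are single peaks of 1 library, bars are Poisson 95% intervals of the tags, and filled points overlap a peak of the other depot. Thbs1 has the tallest member peak of each list, followed by Adamts9 in the inguinal and Col22a1 in the perigonadal list. Peaks of the fibrillar collagens lie between 7.93 and 10.6.

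A peak was called shared when 1 bp or more of it overlapped a peak of the other depot. Of the 21 inguinal members 14 were shared, 66.7% (45.4 to 82.8%), beside 28.5% of all inguinal peaks. From the perigonadal side the same 14 sites were 28% of 50 members (17.5 to 41.7%), beside 12.8% of all perigonadal peaks. The perigonadal list is the longer one, which by itself gives its peaks a lower shared share. Tall peaks of either list were shared more often than low ones. Among inguinal peaks of more than 12 tags 13 of 17 members were shared, 76.5% (52.7 to 90.4%), beside 59.1% of all such peaks, which lies inside the interval. Among perigonadal peaks of more than 12 tags 12 of 18 members were shared, 66.7% (43.7 to 83.7%), beside 43.6% of all such peaks (40.5 to 46.8%). This list value lies just below the members' interval, though the intervals overlap. Among peaks of up to 12 tags 1 of 4 inguinal and 2 of 32 perigonadal members were shared, beside 6.88% and 3.13% of all such peaks.

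**Figure D2:**
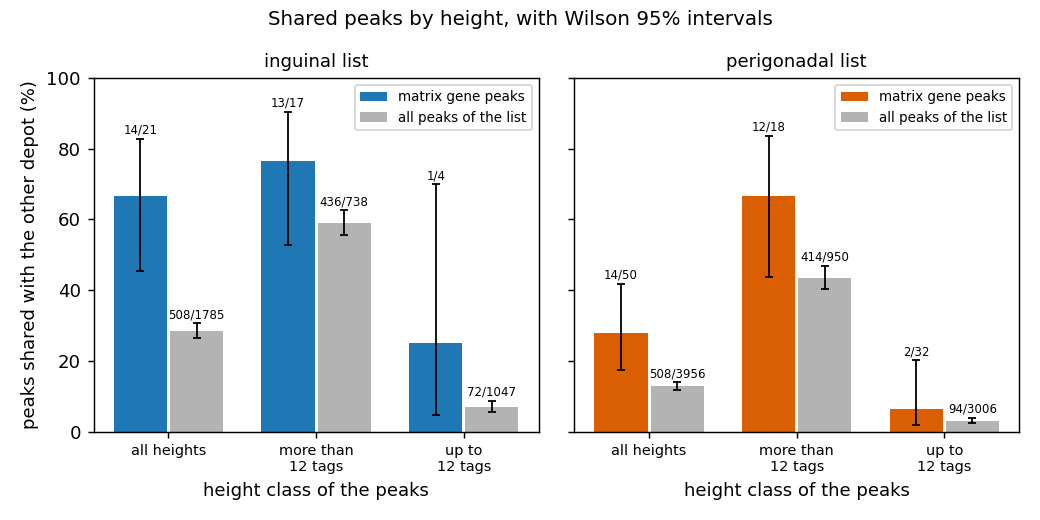
Percentage of peaks that overlap a peak of the other depot, by height class, for matrix gene peaks (coloured) and all peaks of the list (grey), with Wilson 95% intervals and counts. Members were shared more often than the list over all heights, 66.7% beside 28.5% in inguinal fat. Within height classes the intervals of members and list overlap. For perigonadal peaks of more than 12 tags the list value of 43.6% lies just below the members' interval.

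The 14 shared sites belonged to 12 genes, because Sparc and Ccdc80 had 2 each. The centres of the paired peaks lay 5 to 43 bp apart, with a median of 23 bp. In the inguinal annotation 6 of the 14 sites were intergenic, 7 intronic and 1 on a promoter. Of the 7 intronic sites 4 lay in the named gene and 3 in another gene. Sites that were tall in one depot were tall in the other, with Pearson's r of 0.81 on log2 scores and Spearman's rho of 0.81 over the 14 sites. Over all 508 shared sites of the lists r was 0.76 and rho 0.68. The points share the 2 libraries, and sites are not independent replicates. Each list has its own scale, so no direction between depots was read from the scores.

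**Figure D3:**
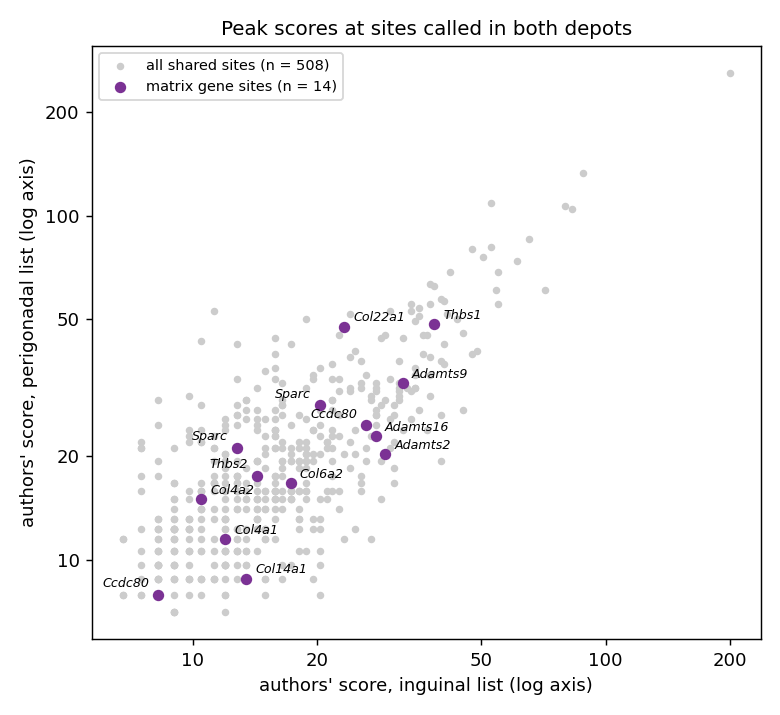
Authors' scores at sites called in both depots, inguinal on the x axis and perigonadal on the y axis, both log. Grey points are all 508 shared sites and purple points are the 14 matrix gene sites, which run from Ccdc80 at 8.27 and 7.93 to Thbs1 at 38.4 and 48.5.

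Counted as genes, 34 of the 117 genes that the rule matches in the RefSeq table were named for a peak in either list, 29.1%, beside 15.4% of 21900 protein-coding genes. Inguinal peaks named 17 of the 117, 14.5%, beside 6.15% of all genes. Perigonadal peaks named 32 of them, 27.4%, beside 12.3%. Matrix genes are long, with a median of 45.7 kb against 17.1 kb for all protein-coding genes, and long genes were named more often. Of matrix genes at least that long 21 of 59 were named, 35.6%, beside 30.4% of all genes in this class. Of the shorter ones 13 of 58 were named, 22.4%, beside 10.6%. Within both classes matrix genes were still the longer, with medians of 138.8 against 92.3 kb and 17.1 against 10.6 kb. The split therefore does not match length fully. Of the 17 inguinal genes 15 were also named in the perigonadal list, 88.2%, beside 48.7% of all inguinal genes. These 15 were 46.9% of the 32 perigonadal matrix genes, beside 24.4% for all perigonadal genes. Shares of genes are given as a description, with no test.

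**Figure D4:**
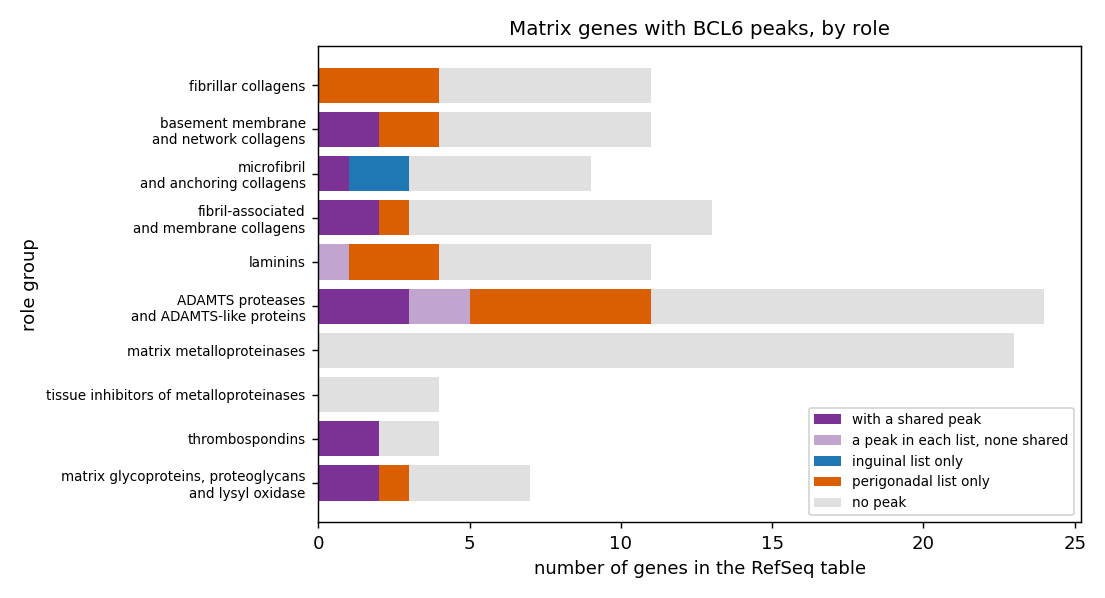
Number of genes in each of 10 role groups, split by whether a BCL6 peak was named for them and in which list. The ADAMTS group has 11 of 24 genes with a peak, and the metalloproteinases (23 genes) and TIMPs (4 genes) have 0. Of all protein-coding genes 15.4% were named in either list.

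Among matricellular and other glycoproteins, Sparc and Ccdc80 each had 2 sites in both depots. Sparc (Entrez 20692) encodes a collagen-binding glycoprotein that adipocytes secrete. Its taller site lay 45.2 kb downstream of the promoter at chr11:55374794-55374996, with scores of 20.3 in inguinal (Poisson interval 13.4 to 29.5) and 28.2 in perigonadal fat (19.3 to 39.8). The other, 47.8 kb downstream at chr11:55372222-55372424, scored 12.8 (7.45 to 20.5) and 21.2 (13.6 to 31.5). The peaks of this pair lay 2.57 kb apart for inguinal and 2.56 kb for perigonadal peaks, all of them intergenic. In each depot the intervals of the 2 sites overlap.

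Ccdc80 (Entrez 67896), a secreted protein of the matrix that is abundant in fat, had more peaks than any other member gene, 6 over both lists at 4 sites. A site in intron 2 of 7, 7.07 kb downstream of the promoter at chr16:45101021-45101223, scored 26.3 in inguinal (18.3 to 36.6) and 24.7 in perigonadal fat (16.4 to 35.7). A second shared site lay 63.1 kb upstream at chr16:45030887-45031089. It scored 8.27 and 7.93, and the RefSeq model of Cd200r3 spans it. A peak in intron 3 was called in inguinal fat alone, with 10.5, and the nearest perigonadal peak was 6.03 kb away. A peak 0.563 kb upstream of the promoter was called in perigonadal fat alone, with 12.3, and the nearest inguinal peak was 7.63 kb away.

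Fbn1, which encodes the microfibril protein fibrillin-1, had 3 perigonadal peaks and no inguinal peak. They scored 10.6 in intron 2 of 65, 8.82 in intron 4 and 7.05 at 19.9 kb upstream of the promoter. The nearest inguinal peak was 557.5 kb or more from each. Fn1, Lox, Dcn and Lum, for fibronectin, lysyl oxidase, decorin and lumican, had no peak in either list. A peak that is missing from a list was not called there, and its absence does not show that BCL6 was absent.

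Thrombospondin genes held the tallest member of both lists. Thbs1 (Entrez 21825) encodes a matricellular protein that binds CD36 and CD47 and can activate latent TGF-beta. Its peak lay 38.1 kb downstream of the promoter at chr2:118149889-118150091, in a MamTip2 DNA transposon. The authors annotate it as intergenic, and the RefSeq model of Fsip1 spans it. It scored 38.4 in inguinal (28.6 to 50.4) and 48.5 in perigonadal fat (36.5 to 63.1), which ranked 29 and 32 in the lists. Thbs2 (Entrez 21826), its close relative, had a shared intergenic site 53.5 kb downstream at chr17:14640682-14640884 with 14.3 (8.60 to 22.3) and 17.6 (10.8 to 27.2). A further pair of Thbs2 peaks was called in perigonadal fat alone, 146.0 kb downstream with 9.70 and 70.0 kb upstream with 8.82. Thbs3 and Thbs4 had none.

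ADAMTS genes made up the largest group, with 11 of 24 genes named for a peak, 5 in inguinal and 11 in perigonadal fat. The shares were 20.8% and 45.8%, beside 6.15% and 12.3% of all protein-coding genes. Among protein-coding genes at least as long as the median matrix gene they were 12.8% and 24.5%. ADAMTS proteins are secreted proteases that cut procollagens and proteoglycans, and the ADAMTS-like proteins lack the protease domain. The 3 shared sites were all intronic, each within its own gene. Adamts9 (Entrez 101401), an aggrecan- and versican-cutting protease, had a peak in intron 17 of 29 at chr6:92850266-92850468, with scores of 32.3 in inguinal (23.4 to 43.6) and 32.6 in perigonadal fat (23.0 to 45.0). Adamts2 (Entrez 216725), which removes the amino-terminal propeptide of fibrillar procollagens, had one in intron 2 of 21 at chr11:50642649-50642851. It scored 29.3 (20.9 to 40.1) and 20.3 (12.9 to 30.4), and it had the closest centres, 5 bp apart. Adamts16 (Entrez 271127) had one in intron 3 of 22 at chr13:70831160-70831362, with 27.8 (19.6 to 38.4) and 22.9 (15.0 to 33.6). After Thbs1 these were the tallest inguinal members.

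Other ADAMTS peaks were lower and none was shared. The inguinal peak on the Adamts1 promoter, centred 0.278 kb upstream of the start, scored 7.52 (3.61 to 13.8), among the lowest members. The perigonadal Adamts1 peak lay elsewhere, 46.8 kb downstream, with 15.0 (8.73 to 24.0). Adamts5, an aggrecanase gene next to Adamts1 on chromosome 16, had perigonadal peaks in intron 2 of 7 and 356.2 kb upstream, of 8.82 each. Adamts12 had a perigonadal peak in intron 1 of 23, 0.801 kb from the promoter at chr15:11065499-11065683, with 14.1 (8.06 to 22.9).

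Adamts15 had inguinal peaks 163.4 and 91.5 kb downstream, with 9.78 and 8.27, and a perigonadal peak 101.2 kb downstream, with 7.05. The inguinal peak of 8.27 and the perigonadal peak lay 8.16 kb apart. Adamts8, Adamts6, Adamtsl3 and Adamtsl4 had perigonadal peaks only, in their own introns with 8.82, 10.6, 7.05 and 10.6. Adamtsl4, which encodes a fibrillin-binding protein, had a further peak 13.5 kb downstream of its promoter with 9.70. No peak was named for the other 13 genes of the group, among them the aggrecanase gene Adamts4 and the procollagen proteinase genes Adamts3 and Adamts14.

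Collagen IV, the network of the basement membrane, had peaks across its paired locus. Col4a1 (Entrez 12826) and Col4a2 (Entrez 12827) start side by side on chromosome 8 and are transcribed in opposite directions. Each peak named for one of them lay in the body of the other. The name alone does not tell which of these genes a site belongs to. A shared site in intron 4 of 47 of Col4a2, named for Col4a1, lay 70.3 kb from its promoter at chr8:11383000-11383202. It scored 12 in inguinal (6.88 to 19.5) and 11.5 in perigonadal fat (6.10 to 19.6). A shared site in intron 1 of Col4a1, named for Col4a2, lay 41.7 kb from its promoter at chr8:11270957-11271159, with 10.5 (5.76 to 17.7) and 15.0 (8.73 to 24.0). The perigonadal list held a further peak on each side, with 7.93 in intron 4 of Col4a2 and 8.82 in intron 26 of Col4a1, the latter in a LINE element. The nearest inguinal peaks were 9.68 and 45.5 kb away.

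Col18a1, the source of the anti-angiogenic fragment endostatin, had a perigonadal peak in intron 5 of 40 with 9.70. Col8a1, a short-chain network collagen, had one 318.8 kb upstream with 8.82, in a SINE element. The chains of the other collagen IV trimers, Col4a3, Col4a4, Col4a5 and Col4a6, had none.

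Collagen VI forms beaded microfibrils that link adipocytes to their surroundings. In the group of microfibril and anchoring collagens inguinal peaks named 3 of 9 genes and perigonadal peaks 1, all of collagen VI. The shares were 33.3% and 11.1%, beside 6.15% and 12.3% of all protein-coding genes. The median gene of this group is 106.4 kb long. Among protein-coding genes at least as long as the median matrix gene the shares were 12.8% and 24.5%. Col6a2 (Entrez 12834) had a shared intergenic site 44.4 kb upstream at chr10:76667900-76668102, with 17.3 in inguinal (11 to 26.0) and 16.7 in perigonadal fat (10.1 to 26.2). Col6a6 had an inguinal peak in intron 24 of 36 with 15.8 (9.78 to 24.1), the tallest inguinal member without a partner. The nearest perigonadal peak was 333.7 kb away. Col6a3, which carries the fragment endotrophin, had an inguinal peak in intron 1 of 43 with 7.52. No peak was named for Col6a1. The difference between the depots was not tested.

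Among collagens that sit on fibrils or in the membrane, Col22a1 had the tallest promoter peak of the members in each list. Col22a1 (Entrez 69700) encodes a collagen of tissue junctions. The peak was centred 0.065 kb downstream of the annotated start at chr15:72034061-72034263 in inguinal fat, with a score of 23.3 (15.8 to 33.1). In perigonadal fat it scored 47.6 (35.8 to 62.1) and ranked 33 in the list, the second tallest member. The perigonadal list held a second promoter peak 0.667 kb upstream with 12.3 (6.75 to 20.7), whose centre lay 0.766 kb from the first, and a further peak 171.2 kb upstream with 8.82. The RefSeq model of Col22a1 includes predicted transcripts and spans chr15:71795795-72150979, which extends upstream of this start.

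Col14a1 (Entrez 12818), for a collagen that binds fibril surfaces, had 3 perigonadal peaks and 1 inguinal peak, all upstream. The shared site lay 71.6 kb upstream at chr15:55236054-55236256, in the last intron of the neighbouring gene Deptor, an inhibitor of mTOR. It scored 13.5 in inguinal (8.02 to 21.4) and 8.82 in perigonadal fat (4.23 to 16.2). The peaks found in perigonadal fat alone lay 40.6 and 24.3 kb upstream, with 10.6 and 9.70, both in SINE elements. Col13a1, a membrane collagen, had a perigonadal peak of 7.93 in intron 2 of 37.

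**Figure D5:**
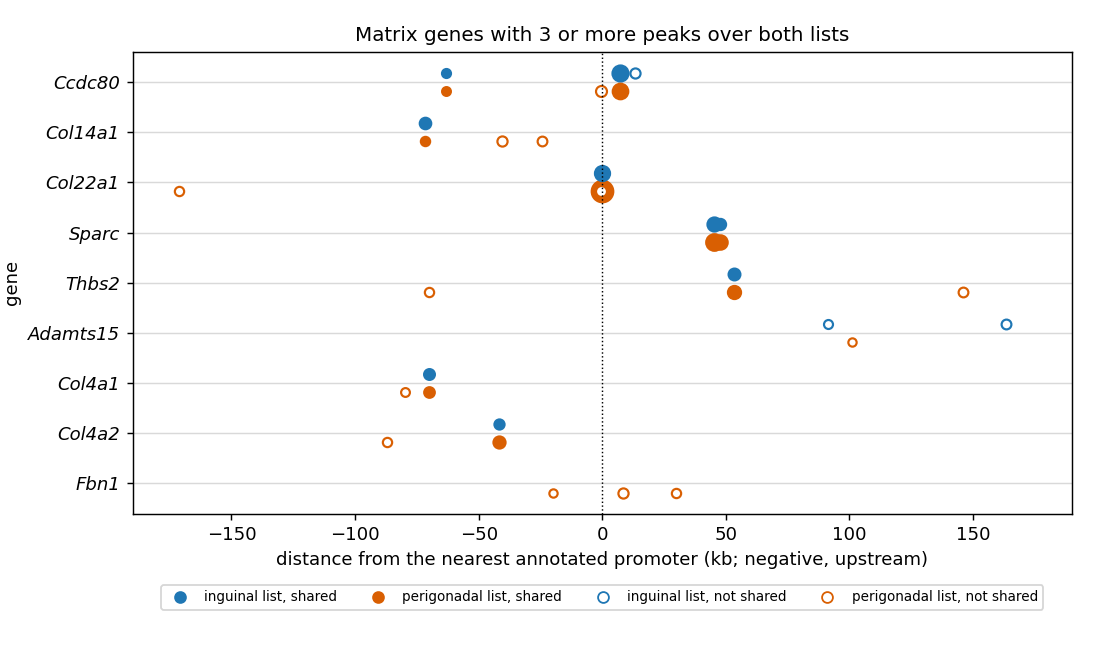
Distance of each peak from the promoter it is named for (kb, negative upstream) for the 9 genes with 3 or more peaks. Point area is proportional to the score and filled points are shared. The tall shared sites of Sparc and Thbs2 lie 45.2 to 53.5 kb downstream, and that of Col22a1 lies on the promoter.

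Laminins, the other main part of the basement membrane, had no shared site, and their scores lay between 8.82 and 13.2. Inguinal peaks named 9.09% of laminin genes and perigonadal peaks 36.4%, beside 6.15% and 12.3% of all protein-coding genes. Laminin genes are long, with a median of 64.5 kb. Among protein-coding genes at least as long as the median matrix gene the shares were 12.8% and 24.5%. Lama4, the alpha chain of laminins found around adipocytes and vessels, was the only one of 11 laminin genes with a peak in each depot. Both were in intron 1 of 37, the inguinal one 5.96 kb from the promoter with 9.78 (5.21 to 16.7) and the perigonadal one 28.8 kb from it with 13.2 (7.40 to 21.8). They lay 22.8 kb apart. Lamb1, Lamc1 and Lamc3 had perigonadal peaks in introns 12, 1 and 7, with 10.6, 8.82 and 8.82, the first of them in an LTR element. No peak was named for Lama2 or Lama5.

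Fibrillar collagens, which make the load-bearing fibres, had 6 perigonadal peaks at 4 of 11 genes and no inguinal peak. The 4 genes were 36.4%, beside 12.3% of all protein-coding genes named in the perigonadal list. The shorter inguinal list named 6.15% of all protein-coding genes. The median fibrillar collagen gene is 45.1 kb long. Of protein-coding genes at least as long as the median matrix gene, perigonadal peaks named 24.5% and inguinal peaks 12.8%. None of the 6 peaks rested on more than 12 tags. Col1a2, a chain of type I collagen, had peaks 72.1 and 86.6 kb upstream with 8.82 each. Col3a1 had peaks 11.8 and 151.6 kb upstream with 7.93 each. Col5a3 had a peak in intron 35 of 66 with 10.6 and Col5a1 one in intron 25 of 65 with 8.82, both in repeats. Col1a1, for the other chain of type I collagen, had none. The nearest inguinal peak to any of these lay 325.8 kb away.

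No peak in either list was named for any of the 23 matrix metalloproteinase genes or the 4 TIMP genes. The metalloproteinase genes are short, with a median of 12.7 kb. Among all protein-coding genes between the shortest and the longest of them 16.6% were named in either list, and among those shorter than the median matrix gene 10.6% were. The genes without a peak include Mmp2 and Mmp9, which encode the gelatinases, Mmp14, which encodes a membrane-bound collagenase, and Timp1 to Timp4.

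Col4a3bp, matched by name alone, had a perigonadal peak in intron 3 of 16 with 17.6 (10.8 to 27.2). It was the tallest perigonadal member without a partner. The other unshared perigonadal members of more than 12 tags were those of Adamts1, Adamts12, Lama4, Ccdc80 and Col22a1 given above. More than 12 tags lay under 6 of the 36 unshared perigonadal members, 16.7% (7.87 to 31.9%), near the 15.5% of all unshared perigonadal peaks. They lay under 4 of the 7 unshared inguinal members, 57.1% (25.0 to 84.2%), beside 23.6% of all unshared inguinal peaks.

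By position the members resembled their lists. Introns held 11 of 21 inguinal members, 52.4% (32.4 to 71.7%), and 26 of 50 perigonadal members, 52.0% (38.5 to 65.2%), beside 47% and 47.1% of the lists. Of these 37 intronic peaks 29 lay inside the RefSeq span of the gene they were named for and 8 in another gene only, the Col4a1, Col4a2 and Deptor introns given above. Intergenic sequence held 8 and 21 members, beside 43.5% and 42.9%, and 2 and 3 members were annotated to a promoter, beside 5.27% and 4.47%. No member lay in an exon, an untranslated region or a gene end, a class that held 4.2% of inguinal and 5.54% of perigonadal peaks. Within 1 kb of a promoter lay 2 inguinal and 4 perigonadal members, 9.52% (2.65 to 28.9%) and 8% (3.15 to 18.8%), beside 7.06% and 6.22% of the lists. Within 10 kb lay 5 inguinal and 9 perigonadal members, 23.8% and 18%, beside 25.8% and 26%. Within 50 kb lay 13 and 30, 61.9% and 60%, beside 64% and 62.4%, and the rest lay beyond, where the lists held 36% and 37.6%. Upstream of the promoter lay 6 inguinal and 20 perigonadal members, beside 40.8% and 42.1% of the lists.

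Annotated repeats held 1 inguinal member, the Thbs1 site, 4.76% (0.846 to 22.7%), beside 21.1% of the list. They held 11 perigonadal members, 22% (12.8 to 35.2%), beside 24% of the list. The perigonadal peak at the taller Sparc site is annotated to a MIR SINE and its inguinal partner to none. Both are called intergenic, and their centres lay 43 bp apart. The focus ratio, the authors' measure of how tags gather around a peak centre, had a median of 0.821 for inguinal and 0.833 for perigonadal members, beside 0.812 and 0.833 for the lists.

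Other genes of the same pathways had peaks as well, but none of these was shared. The lists covered 118 genes of collagen processing, other matrix proteins, matrix receptors, other proteases and TGF-beta signalling. They were named for 16 inguinal and 34 perigonadal peaks, of which 2 and 7 rested on more than 12 tags, and 0 of either overlapped a peak of the other depot. The shares of the whole lists were 28.5% and 12.8% shared, 41.3% and 24% of more than 12 tags. In either list 34 of the 118 genes were named, 28.8%, beside 15.4% of all genes. The 118 genes are long too, with a median of 50.1 kb. Of all protein-coding genes at least as long as the median matrix gene 30.4% were named.

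Among other matrix proteins 9 of 28 genes had perigonadal peaks, and 2 of these had inguinal ones too. The shares were 32.1% and 7.14%, beside 12.3% and 6.15% of all protein-coding genes. The median gene of this list is 52.1 kb long. Among protein-coding genes at least as long as the median matrix gene the shares were 24.5% and 12.8%. Smoc1, a relative of Sparc, had perigonadal peaks of 24.7 in an intron 3.04 kb from its promoter and of 10.6 upstream. Nid2, which links laminin to collagen IV, had one of 17.6. Efemp1, a fibulin, had an inguinal peak of 17.3 located 6.66 kb upstream. No collagen processing gene of 17 was named in the inguinal list, which named 6.15% of all genes. The perigonadal list named 2 of them, 11.8%, beside 12.3% of all genes. They were Loxl1, a lysyl oxidase-like crosslinker, with 11.5 and Serpinh1, the collagen chaperone gene, with 9.70.

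Of 30 integrins and matrix receptors 3 had an inguinal and 7 a perigonadal peak, 10% and 23.3%, beside 6.15% and 12.3% of all genes. Their median length is 76.6 kb. Among protein-coding genes at least as long as the median matrix gene the shares were 12.8% and 24.5%. None of the 3 inguinal receptor genes was among the 7 perigonadal ones, where 48.7% of all inguinal genes were named in the perigonadal list too. The peaks of these receptors scored from 7.52 to 9.78, among them Itgb1 and Itgb3 in inguinal and Itga5 and Itgb5 in perigonadal fat. Of 22 other proteases and inhibitors 3, 13.6%, had an inguinal peak, Adam12, Adam19 and Plau, with scores from 6.77 to 8.27. A perigonadal peak was named for 2 of the 22, 9.09%. Of 21 TGF-beta genes 6, 28.6%, had a peak in each depot, beside 6.15% of all genes for inguinal and 12.3% for perigonadal peaks. Their median length is 69.0 kb. Among protein-coding genes at least as long as the median matrix gene the shares were 12.8% and 24.5%. Both lists named 4 of the TGF-beta genes. From either depot these 4 were 66.7%, beside 48.7% of all inguinal and 24.4% of all perigonadal genes. The tallest TGF-beta peaks were perigonadal ones upstream of Smad3, which transduces the signal, with 12.3 each.

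A binding map gives no expression, so the labelled cell type could not be checked against marker levels. Of 8 adipocyte marker genes 1, Lep, had peaks, 12.5%, beside 15.4% of all protein-coding genes named in either list. They scored 7.52 in inguinal fat, 0.424 kb upstream, and 8.82 in perigonadal fat, 10.4 kb downstream. Each rested on 10 tags, and neither was shared. Of 6 markers each of fibroblasts and their precursors and of macrophages 0 had a peak, and of 6 endothelial markers 1, Cdh5, had one, 233.3 kb from its promoter. Beside 15.4% of all genes, lists this short do not separate the cell types. Matrix genes are expressed strongly by fibroblasts, and the part of any such nuclei in these peaks was not tested.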

How the data were processed

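Peaks were mapped in 1 BCL6 library per depot, after fixation with disuccinimidyl glutarate for 30 minutes and 1% formaldehyde for 10 minutes, per the labels' protocols. Bowtie 1.2, HOMER and the build mm10 are named in the submitters' processing notes, and peaks were annotated with HOMER's annotatePeaks on mm10, per the file headers. A false discovery rate of 0.001 is named for inguinal peaks and no threshold for perigonadal ones, per the file headers, so the calling limits may differ. The lowest peak rested on 9 tags in the inguinal and on 6 in the perigonadal list. The perigonadal peaks of Adamts15 and Adamtsl3 and the upstream one of Fbn1, of 8 tags each, lay below the lowest inguinal count. The sources used here do not say how the inputs were used or whether libraries were pooled. Peak scores are the authors' deposited values. They were whole multiples of 1 step per list in 100.0% of peaks, within 0.005 for scores below 10 and 0.05 above, and were read as tags with exact Poisson intervals. The sources used here give no read total, so depth is unknown. The deposited focus ratio, a fraction, and the distance to the promoter are the authors' values too.

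Shares carry Wilson 95% intervals and were set beside the whole list, with no test, because there is 1 library per depot. Without molecular identifiers, tags need not be independent molecules. Peaks named for 1 gene share that gene and are not replicates. Of the 35 gene names 34 matched RefSeq (GRCm38.p6) by symbol. Members and lists were chosen with earlier results of these data known. Named genes were those with a shared peak, with a peak of more than 12 tags, with 3 or more peaks, with a peak within 1 kb of a promoter, and the tallest of each role group. Others were named after their values were seen. The 10 role groups and the 5 matrix-related gene lists were set by gene function. Alternatives covered the overlap rule, a stricter height, equal list length, distance and repeats. Python 3.11.15 with pandas 2.3.3 and scipy 1.17.1 was used. No genome was used, so sequence was searched in promoter windows only. The overlap and tag steps were tested on simulated data.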

Additional observations from a re-analysis of the deposited data

How the results depend on the processing

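Of 53 values recomputed under the alternatives, 41 stayed within the interval of the reported share or within 1.5 times the reported count, and 12 moved. With peaks of more than 12 tags alone, in both lists, perigonadal members fell from 50 to 18 and their genes from 33 to 15. Of these 18, 66.7% were shared, 22.2% lay within 1 kb of a promoter and 11.1% in repeats, beside 39.8%, 8.21% and 11.9% of all perigonadal peaks under the same setting. With both lists held to 1785 peaks, 28 perigonadal members were left, of which 42.9% were shared, beside 25.9% of either list. Members within 50 kb of the promoter were 13 inguinal and 30 perigonadal peaks, at 11 inguinal genes, and 9 of them were shared from either side. The shared share of inguinal members ran from 57.1% to 70.6% over the 6 settings tried and that of perigonadal members from 28% to 66.7%. Over the same settings the shared share of the whole lists ran from 25.9% to 51.2% and from 12.1% to 39.8%. Without peaks in repeats 12 sites were shared. Leaving out Col4a3bp, an alternative chosen after seeing the data, gave 49 perigonadal members, 28.6% of them shared. Scores of single peaks do not change under these alternatives. Most perigonadal members rested on up to 12 tags, and at this height intervals of a score span more than 3-fold. No paired analysis was possible because each depot has 1 BCL6 library.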
